A study of Mus musculus with 4 samples.

Results

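The 10 genes described here encode chemokines of the skin: Cxcl1, Cxcl2, Cxcl5, Cxcl12, Cxcl14, Cxcl16, Ccl2, Ccl17, Ccl20 and Ccl27a. They were taken by gene name from a table of 56953 genes, and each name matched 1 row. Transcripts were counted in dorsal skin of wild type C57BL/6J mice treated on the surface for 3 days. One group was given NEDD8i (10 µM), for which the labels state no other name, and the control group DMSO. Each group had 2 libraries, and all 4 came from the same strain and genotype; the sources used here state neither age nor sex. The labels describe harvest of skin through its full thickness, while their extraction text speaks of cells. The labels do not say whether the replicates were separate mice, so p-values cover only the variation among these libraries, and part of it may be technical. Reads came from a 3′ tag method that samples the end of each polyadenylated transcript, so a gene's read number does not scale with its length.

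Chemokines are small secreted proteins that steer leukocytes along concentration gradients by binding G protein-coupled receptors. CXC and CC chemokines are named for the spacing of their first cysteines. In skin, keratinocytes make some of them without a stimulus, such as Cxcl14 and Ccl27a, and others mainly after injury, infection or cytokine signals, such as Cxcl1, Cxcl2, Cxcl5 and Ccl20. NF-kB, a family of transcription factors that cytokines activate, is a known inducer of the second kind. NEDD8 is a ubiquitin-like protein whose attachment to cullins activates a large class of ubiquitin ligases, among them the ligase that removes inhibitors of NF-kB.

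RefSeq promoter windows (build GRCm38.p6, 250 bases before to 50 after the gene start) were given for 7 of the 10 genes, and not for Cxcl5, Cxcl16 or Ccl2. The windows of Cxcl1, Cxcl2 and Ccl20 are shown because these inducible chemokines hold a match to the NF-kB consensus motif (10 letters, searched on both strands), in capitals, and because Cxcl2 and Ccl20 were among the members with the largest differences below. The windows lie at chr5:90890995-90891294, chr5:90903649-90903948 and chr1:83116516-83116815 in that order, all on the plus strand.
Cxcl1: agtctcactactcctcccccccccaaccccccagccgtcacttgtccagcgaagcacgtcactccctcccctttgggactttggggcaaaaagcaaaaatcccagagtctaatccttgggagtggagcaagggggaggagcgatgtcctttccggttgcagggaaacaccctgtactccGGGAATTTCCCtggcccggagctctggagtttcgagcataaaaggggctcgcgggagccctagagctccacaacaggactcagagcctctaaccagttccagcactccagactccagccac
Cxcl2: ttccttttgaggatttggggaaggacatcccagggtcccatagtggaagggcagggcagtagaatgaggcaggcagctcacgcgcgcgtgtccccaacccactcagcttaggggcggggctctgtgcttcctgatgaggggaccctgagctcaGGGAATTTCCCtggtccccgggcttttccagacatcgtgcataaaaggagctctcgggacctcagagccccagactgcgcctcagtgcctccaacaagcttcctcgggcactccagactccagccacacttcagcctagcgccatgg
Ccl20: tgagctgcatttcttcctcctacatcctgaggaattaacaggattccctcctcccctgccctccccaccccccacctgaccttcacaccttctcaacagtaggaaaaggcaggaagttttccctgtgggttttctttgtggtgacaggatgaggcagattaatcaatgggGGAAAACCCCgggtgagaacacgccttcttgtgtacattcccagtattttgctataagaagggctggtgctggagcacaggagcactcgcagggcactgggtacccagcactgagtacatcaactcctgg

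In Cxcl1 and Cxcl2 the capitals cover matches on both strands that overlap by all but their end letters, counted as 2 matches each. They begin 71 bases before the start of Cxcl1 and 97 bases before that of Cxcl2. The 11 letters in capitals are the same in both genes. Ccl20 had 1 match, on the minus strand, 80 bases before its start. A match was present in 4.51% of the 32851 windows of this length in the table. The windows of Cxcl12, Cxcl14 and Ccl17 held none, and of the 3 windows of Ccl27a 1 held a match, 30 bases after the start. The AP-1 letters TGANTCA were found in that same Ccl27a window and in no other member window, against 7.81% of all windows. TATAAA was found in no member window, against 13.6% of all windows. A match describes letters only, and says nothing about binding.

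Total counts ran from 5639791 to 8856572 per library, and 2287839 to 3654442 remained after ribosomal RNA genes, which took 52.6% to 61.7%. DMSO replicate 1 stood apart in its tissue make-up. Hair shaft and inner root sheath markers summed to 6871 CPM (reads of a gene relative to library size, scaled by edgeR's TMM factors) in that library. The other DMSO library had 20.9 CPM, and the NEDD8i replicates 1 and 2 had 16 and 435 CPM. Adipocyte markers summed to 72.9, 2.89, 10.5 and 4.91 CPM in the library order used from here on (DMSO replicates 1 and 2, then NEDD8i replicates 1 and 2). Basal keratinocyte markers, which define the epidermis, were abundant in every library, at 3028 to 5761 CPM. Endothelial markers had only 5 to 27 reads per library in tissue labelled as full thickness. In bulk tissue, fewer cells of a type and less RNA per cell cannot be told apart.

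Comparing NEDD8i with DMSO, which asks how the treated skin differed, the inducible chemokines Cxcl2 and Ccl20 and the membrane-bound chemokine Cxcl16 were between 2.68 and 3.14 times as high after NEDD8i, with every NEDD8i library above every DMSO library. Ccl27a, made by resting keratinocytes, was lower in both NEDD8i libraries. Cxcl12 and Cxcl14 overlapped between groups, Cxcl1 and Ccl2 had few reads, and Cxcl5 and Ccl17 had none. The threshold was 0.05 for the adjusted p from quasi-likelihood testing of 11388 genes with edgeR, and no chemokine passed it: 0 of the 7 that could be tested, where 0.782% of all tested genes passed, 0.667% as higher. At an unadjusted p under 0.05 there were 3 of these 7, all higher, against 16.5% of all tested genes in either direction and 8.62% as higher. Both NEDD8i libraries lay above both DMSO libraries for 4 of the 7 and below them for 1, against 25.1% and 22.7% of all tested genes. Among these 4, Cxcl1 barely separated, at 1.85 CPM in DMSO replicate 1 and 1.86 CPM in NEDD8i replicate 1. The median log2 fold change of these 7 was 0.76, and that of all tested genes -0.0031. These genes were picked with earlier results known, so the counts describe them and support nothing further.

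**Figure D1:**
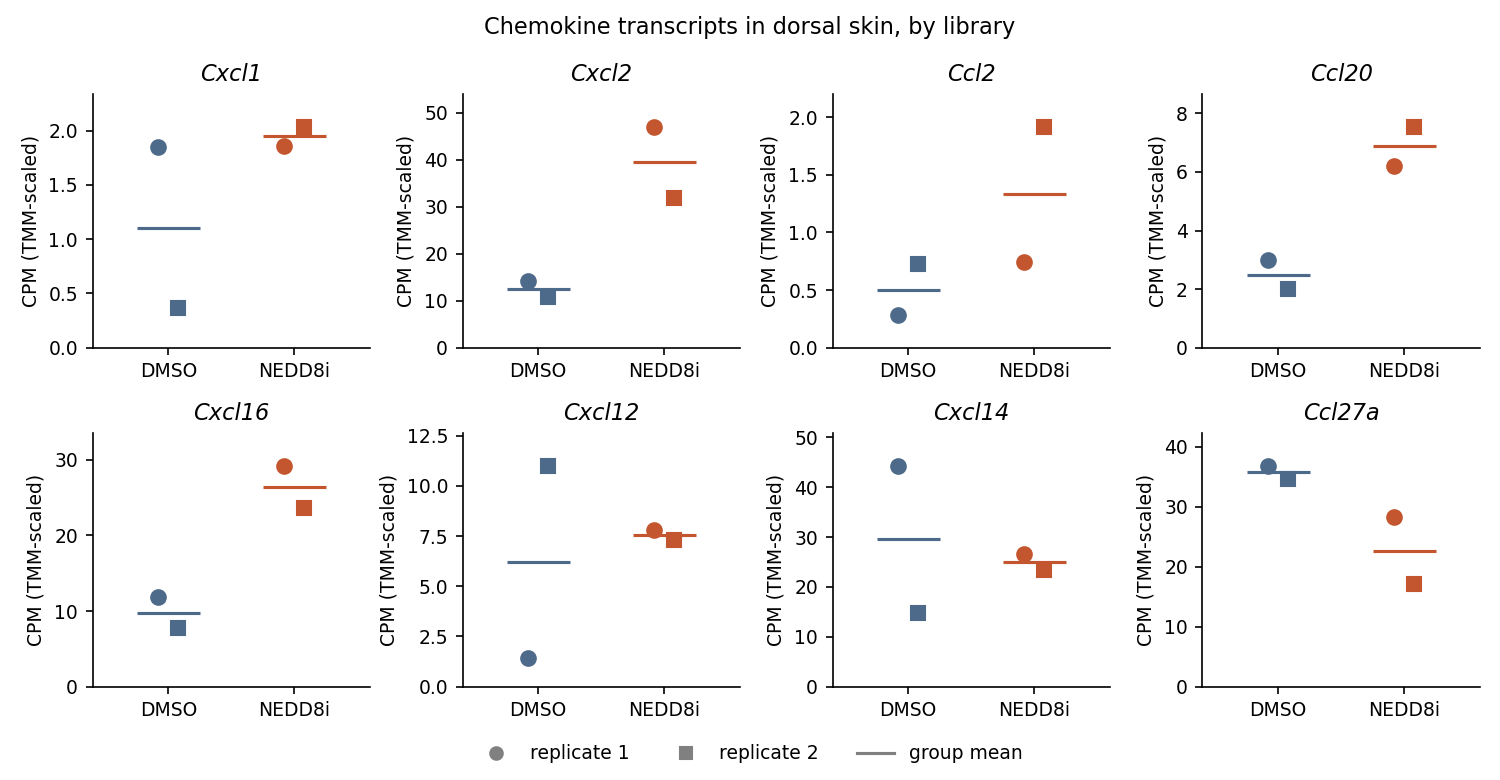
Level of each chemokine with reads, in CPM scaled by TMM factors (vertical axes from 0, each with its own range), in DMSO and NEDD8i libraries; circles are replicate 1, squares replicate 2 and lines group means of 2 libraries. Cxcl2, Cxcl16 and Ccl20 separate upward and Ccl27a downward, while Cxcl12 and Cxcl14 overlap because the DMSO libraries lie far apart.

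Cxcl1, Cxcl2 and Cxcl5 attract neutrophils through the receptor Cxcr2. Cxcl2 (ENSMUSG00000058427.11, chromosome 5, 91051730 to 91053797, plus strand, coordinates as deposited and taken to be GRCm39) had 100 and 60 reads in the DMSO libraries (replicates 1 and 2) and 380 and 266 in the NEDD8i libraries. The lowest NEDD8i library was thus well above the highest DMSO library. Mean levels were 12.5 ± 2.39 CPM with DMSO and 39.5 ± 10.7 CPM with NEDD8i (SD, n = 2 each). The log2 fold change was 1.65 (SE 0.34, 95% interval 0.88 to 2.42), and it missed the threshold narrowly (edgeR unadjusted p = 0.000945, adjusted p = 0.0673). DESeq2, which called 3.64% of all genes, put Cxcl2 past the threshold (log2 fold change 1.62, adjusted p = 0.00587). So did edgeR without a filter on low counts, which called 2.97% of 23633 genes (1.68, adjusted p = 0.000364). Over 13 other settings the adjusted p of Cxcl2 ran from 0.000165 to 0.504 and its direction did not turn.

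Cxcl1 (ENSMUSG00000029380.12, chromosome 5, 91039100 to 91040974, plus strand), a close relative of Cxcl2 in the same gene cluster, had 13, 2, 15 and 17 reads in library order. DMSO replicate 1 and NEDD8i replicate 1 were nearly equal, at 1.85 and 1.86 CPM, so the groups barely separated. The group means were 1.10 ± 1.05 CPM in DMSO and 1.95 ± 0.126 CPM after NEDD8i (SD, n = 2 each). Its log2 fold change of 0.76 carried an interval from -1.14 to 2.66 (SE 0.84, edgeR adjusted p = 0.716). Without DMSO replicate 1 it was 2.37, and without DMSO replicate 2 it was 0.09. The read numbers cannot place the change of Cxcl1 closer than that interval. Cxcl5 (ENSMUSG00000029371.8, chromosome 5, 90907237 to 90909483, plus strand) had no read in any of the 4 libraries. A count of 0 allows a level of 0.359 CPM (NEDD8i replicate 2) to 0.542 CPM (DMSO replicate 2), taking 3 counts as the limit and covering counting error only.

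Beside these ligands, their receptor Cxcr2 had 11, 33, 75 and 44 reads in library order and overlapped between groups in CPM. It differed by 0.97 on the log2 scale (SE 0.63, edgeR adjusted p = 0.501). Cxcr2 and the other receptors discussed with single ligands were chosen for their ligand and not by the rule for named genes. Of the 14 neutrophil markers 6 had 0 reads in every library, including Ly6g and the granule protein genes Camp, Ltf, Ngp, Mpo and Elane. The summed list was 17.8 and 20.6 CPM in DMSO and 128 and 84.6 CPM after NEDD8i, and most of it came from S100a8 and S100a9, calcium-binding proteins that keratinocytes also make. S100a8 rose (log2 fold change 2.28, SE 0.37, edgeR adjusted p = 0.0347). S100a9 stood at 3.71 (SE 1.05, edgeR adjusted p = 0.206). Cxcr2 is itself on this list. The other 5 markers had few reads, mostly in NEDD8i replicate 1: in library order Csf3r had 0, 1, 5 and 0, Mmp8 had 1, 0, 3 and 1, and Stfa2l1 had 0, 0, 4 and 0. Retnlg had 2 reads and Prtn3 had 1, all in that library. The part of neutrophils in the Cxcl2 values was not tested.

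Ccl20 (ENSMUSG00000026166.15, chromosome 1, 83094487 to 83096888, plus strand) attracts Ccr6-bearing T cells and dendritic cells. It had 21 and 11 reads in the DMSO libraries (replicates 1 and 2) and 50 and 63 in the NEDD8i libraries. Both treated libraries were above both controls, with group means of 2.49 ± 0.706 and 6.87 ± 0.958 CPM (SD, n = 2 each). The log2 fold change was 1.45 (SE 0.49, 95% interval 0.34 to 2.55), which did not pass (edgeR unadjusted p = 0.0161, adjusted p = 0.191). Its receptor Ccr6 had 0, 1, 0 and 1 reads in library order.

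Cxcl16 (ENSMUSG00000018920.12, chromosome 11, 70344809 to 70350810, minus strand) is made as a membrane protein that also acts as a scavenger receptor, and metalloproteases release its chemokine part. It had 83 and 43 reads in the DMSO libraries (replicates 1 and 2) and 236 and 197 in the NEDD8i libraries. The groups did not overlap, with means of 9.78 ± 2.85 and 26.4 ± 3.98 CPM (SD, n = 2 each). The log2 fold change was 1.42 (SE 0.35, 95% interval 0.62 to 2.22), not past the threshold in edgeR (unadjusted p = 0.00304, adjusted p = 0.103). DESeq2 called it (1.40, adjusted p = 0.0449), as did edgeR without the filter (1.45, adjusted p = 0.00865), and over 13 other settings the adjusted p ran from 0.00123 to 0.63. An exon of Zmynd15 on the opposite strand overlaps Cxcl16, and Zmynd15 had 0 to 6 reads per library. The sources used here do not state whether counting used strand, so reads of this pair may not be fully separated. The Zmynd15 reads do not show how many Cxcl16 reads the overlap affected. The Cxcl16 receptor Cxcr6, carried by skin T cells, had 31, 16, 29 and 7 reads in library order (log2 fold change -0.73, SE 0.73, edgeR adjusted p = 0.679). Of the releasing proteases, chosen for that role, Adam10 stood at 0.06 (SE 0.30, edgeR adjusted p = 0.939) and Adam17 at 0.23 (SE 0.30, edgeR adjusted p = 0.76).

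**Figure D2:**
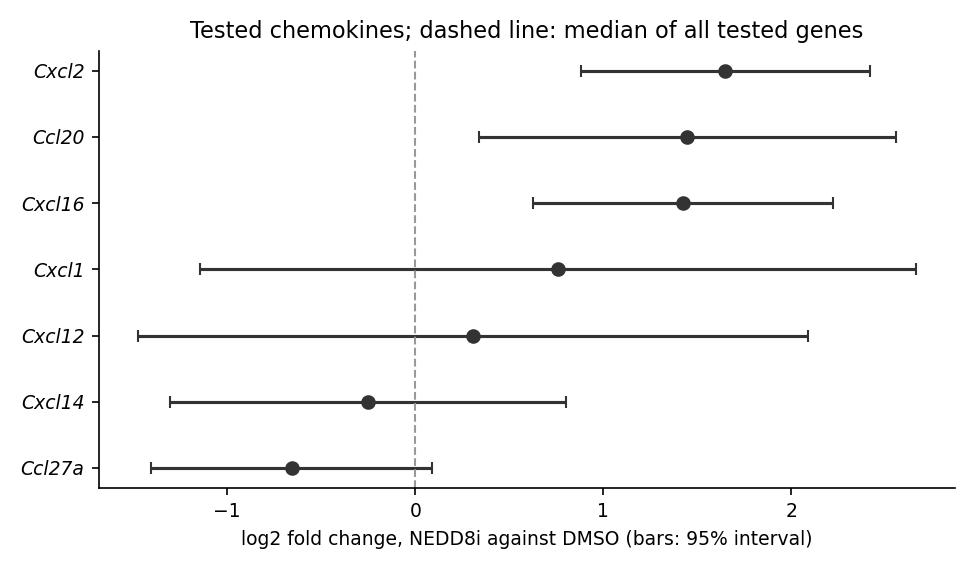
Log2 fold change of NEDD8i against DMSO for the 7 tested chemokines (horizontal axis), with bars for the 95% interval from edgeR's fit and a dashed line at the median of all tested genes. The intervals of Cxcl2, Cxcl16 and Ccl20 lie above 0 and the others include it; after adjustment over 11388 genes none passed.

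Ccl2 (ENSMUSG00000035385.6, chromosome 11, 81926397 to 81928279, plus strand) attracts monocytes through Ccr2. It had 2 and 4 reads in the DMSO libraries (replicates 1 and 2) and 6 and 16 in the NEDD8i libraries, too few to pass the filter. NEDD8i replicate 2 held most of its reads, and NEDD8i replicate 1 (0.743 CPM) was close to DMSO replicate 2 (0.722 CPM). The ratio of summed counts, scaled by depth, was 2.81 with a 95% counting interval of 1.10 to 8.46 that leaves out the spread between samples. Its receptor Ccr2 had 2, 1, 15 and 28 reads in library order. The depth-scaled ratio was 11 (95% counting interval 3.51 to 55.3), and the log2 fold change of 3.37 (SE 0.92) did not pass in edgeR (adjusted p = 0.129). Ccr2 passed the filter on low counts only through the NEDD8i libraries. Monocyte and macrophage markers summed to 26.3 and 18.2 CPM in DMSO and 44 and 31.6 CPM after NEDD8i. In edgeR 0 of 5 tested members passed the threshold and 1 had an unadjusted p under 0.05, against 16.5% of all tested genes. The part of this marker difference in the Ccl2 and Ccr2 values was not tested.

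Ccl17 (ENSMUSG00000031780.3, chromosome 8, 95537081 to 95538664, plus strand), which attracts Ccr4-bearing T cells and is typical of activated dendritic cells, had 0 reads in all 4 libraries, under the same limits of 0.359 to 0.542 CPM. Langerhans and dendritic cell markers summed to 358, 255, 544 and 441 CPM in library order, with 0 of 7 tested members past the threshold. Mfge8 made up 168, 102, 270 and 184 CPM of these sums. The Langerhans marker Cd207 had 119, 25, 310 and 217 reads. Cd74 had 316, 295, 654 and 773 reads, and Itgax had 30, 28, 33 and 35. Of the 7 tested members 6 had a positive log2 fold change and 1, Itgax, a negative one (-0.17). The members not tested were nearly absent: Flt3 had 2, 0, 1 and 0 reads, Cd209a had 0, 1, 0 and 0, and Xcr1 had 0 in all 4 libraries. The receptor Ccr4 had 15, 10, 0 and 9 reads in library order (log2 fold change -1.83, SE 1.12, edgeR adjusted p = 0.471).

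Ccl27a (ENSMUSG00000073888.14, chromosome 4, 41769467 to 41774247, minus strand) is the keratinocyte chemokine that draws Ccr10-bearing T cells to skin. It had 259 and 192 reads in the DMSO libraries (replicates 1 and 2) and 228 and 143 in the NEDD8i libraries. Scaled for depth, the DMSO libraries lay close together at 36.8 and 34.7 CPM, above both NEDD8i libraries at 28.2 and 17.1 CPM. The log2 fold change was -0.66 (SE 0.33, 95% interval -1.41 to 0.09), which did not pass (edgeR unadjusted p = 0.078, adjusted p = 0.372). Without NEDD8i replicate 2 it was -0.36, and without NEDD8i replicate 1 it was -1.05. Exons of Il11ra1, on the opposite strand, overlap Ccl27a and had 218, 215, 162 and 209 reads in library order. The sources used here do not state whether counting used strand, so reads of the pair may not be fully separated. Ccl27b, a near copy on the same chromosome, had 0 reads, and reads that fit both copies could have been split or lost. The receptor Ccr10 had 0 reads in all 4 libraries.

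Beside these values, basal keratinocyte markers summed to 3028 and 5761 CPM in DMSO and 5161 and 4449 CPM after NEDD8i, and 0 of 8 passed the threshold. Spinous and granular markers summed to 8400 and 13229 CPM in DMSO and 6965 and 5761 CPM after NEDD8i. Of these 10 markers 2 fell and 0 rose past the threshold, against 13 and 76 of all 11388 tested genes. Of this second list 8 members had a negative log2 fold change and 2 a positive one, Ivl (0.64) and Krtdap (0.16). Ccl27a and the sum of the list were thus both lower in the NEDD8i libraries, and the part of one in the other was not tested.

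Cxcl14 (ENSMUSG00000021508.12, chromosome 13, 56436456 to 56444364, minus strand), a chemokine that epithelia make without a stimulus, had 312 and 82 reads in the DMSO libraries (replicates 1 and 2) and 215 and 195 in the NEDD8i libraries. The DMSO libraries, at 44.3 and 14.8 CPM, enclosed the NEDD8i libraries at 26.6 and 23.4 CPM. Its log2 fold change was -0.25 (SE 0.46, 95% interval -1.30 to 0.80, edgeR adjusted p = 0.846). Without DMSO replicate 1 it turned to 0.74, and without DMSO replicate 2 it was -0.81. Cxcl14 was highest in DMSO replicate 1, the library with the highest hair and adipocyte marker sums, and their part in its level was not tested.

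Cxcl12 (ENSMUSG00000061353.12, chromosome 6, 117145496 to 117158328, plus strand), a chemokine of connective tissue cells that binds Cxcr4 and the scavenging receptor Ackr3, had 10 and 61 reads in the DMSO libraries (replicates 1 and 2) and 63 and 61 in the NEDD8i libraries. DMSO replicate 1 was thus low at 1.42 CPM while DMSO replicate 2, at 11 CPM, was the highest of all. The log2 fold change was 0.31 (SE 0.77, 95% interval -1.48 to 2.09, edgeR adjusted p = 0.888). Leaving out DMSO replicate 1 gave -0.55. Leaving out DMSO replicate 2 gave 2.41, which passed (edgeR adjusted p = 0.00399). Dermal fibroblast markers summed to 58.8, 10.3, 42.5 and 88.6 CPM in library order. The gap between the DMSO libraries lay mostly in Dcn, a matrix proteoglycan gene, with 345 and 9 reads there, while the collagen gene Col1a2 had 14 and 14. Of the 7 tested markers 1 rose, against 0.667% of all tested genes. It was Dpt (log2 fold change 3.29, edgeR adjusted p = 0.0446, named after its value was seen). Dpt had 7 and 3 reads in DMSO and 56 and 73 after NEDD8i, and Col3a1 had 7 and 2 against 19 and 83. Both passed the filter on low counts only through the NEDD8i libraries, where they were higher. Counts of markers that include them are thus a description only. At an unadjusted p under 0.05 there were 5 of the 7, all higher, against 8.62% of all tested genes as higher. These 5 had both NEDD8i libraries above both DMSO libraries, as had 25.1% of all tested genes. Dcn and Col6a1 had negative log2 fold changes (-0.45 and -0.38) and overlapped between groups. Lum, Pdgfra and Twist2 had too few reads to be tested. The median log2 fold change of the 7 was 2.35. The part of these markers in the Cxcl12 values was not tested. Ackr3 stood at 0.53 (SE 0.43, edgeR adjusted p = 0.602), with 92, 42, 88 and 159 reads in library order, and Cxcr4 had 3, 4, 23 and 10 reads.

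**Figure D3:**
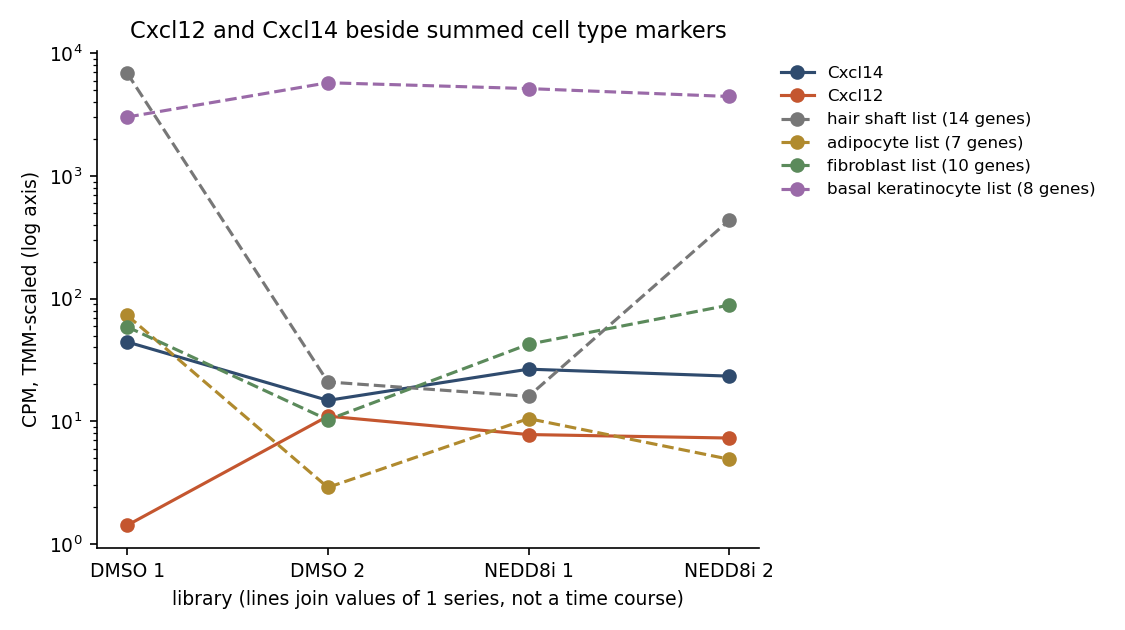
CPM (log axis, TMM-scaled) of Cxcl14 and Cxcl12 and of the summed markers of hair shaft, adipocytes, fibroblasts and basal keratinocytes in each of the 4 libraries; lines only join the values of a series. Cxcl14 peaks in DMSO replicate 1 together with hair and adipocyte markers, while Cxcl12 is lowest there.

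The make-up of the chemokine reads does not depend on how libraries are scaled against each other. The 10 genes had 800 and 455 reads in the DMSO libraries (replicates 1 and 2) and 1193 and 958 in the NEDD8i libraries. Cxcl14 and Ccl27a together held 71.4% and 60.2% of them in DMSO, and 37.1% and 35.3% after NEDD8i. Cxcl2, Cxcl16 and Ccl20 together held 25.5% and 25.1% in DMSO, and 55.8% and 54.9% after NEDD8i. These pairs and triplets were grouped after their values were seen. Cxcl2 alone took 12.5% (exact Clopper-Pearson 95% interval 10.3 to 15) and 13.2% (10.2 to 16.6) in DMSO, and 31.9% (29.2 to 34.6) and 27.8% (24.9 to 30.7) after NEDD8i. Its share thus agreed between replicates and differed between groups by more than counting error, which leaves out the spread between libraries. Within DMSO alone, shares also differed by more than counting error for Cxcl12 (1.25% and 13.4%), Cxcl14 (39% and 18%) and Ccl27a (32.4% and 42.2%). Cxcl2 was singled out as the member with the smallest p. For each Ccl27a read there were 0.386 and 0.312 Cxcl2 reads in DMSO and 1.67 and 1.86 after NEDD8i. Cxcl16 reads per Ccl27a read were 0.32 and 0.224 in DMSO and 1.04 and 1.38 after NEDD8i, and Ccl20 reads per Ccl27a read 0.0811 and 0.0573 against 0.219 and 0.441. Cxcl14 reads per Ccl27a read overlapped, at 1.20 and 0.427 in DMSO and 0.943 and 1.36 after NEDD8i. Such ratios show unequal change between genes and not which of them changed.

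**Figure D4:**
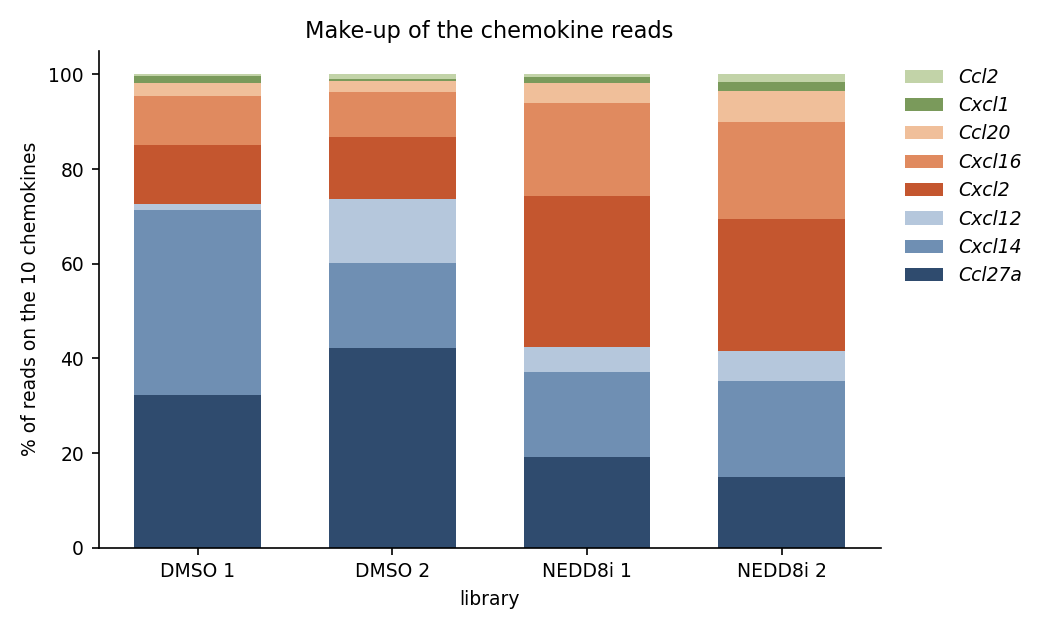
Share of the reads on the 10 chemokines that each gene took (vertical axis, percent), 1 bar per library; Cxcl5 and Ccl17 had no reads. Cxcl2, Cxcl16 and Ccl20 make up 25.1% to 25.5% of the DMSO bars and 54.9% to 55.8% of the NEDD8i bars.

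The remaining genes of the chemokine system gave few differences past the threshold. To set beside the counts in this paragraph and the next, edgeR called 0.782% of all tested genes and DESeq2 3.64%. An unadjusted edgeR p under 0.05 was found for 16.5% of all tested genes in either direction. Of 30 other chemokines 6 had 0 reads throughout and only 5 could be tested, of which 0 passed in edgeR, 2 had an unadjusted p under 0.05 and DESeq2 called 1. The 2 with the highest mean log2 CPM among those tested were Cx3cl1, a membrane-bound chemokine (51, 21, 14 and 14 reads in library order, log2 fold change -1.70, SE 0.57, edgeR adjusted p = 0.188), and the interferon-induced Cxcl10 (43, 8, 13 and 14 reads, -1.22, SE 0.74, edgeR adjusted p = 0.465). Cxcl10 owed its value to DMSO replicate 1, without which it was 0.17. Ccl6, named after its values were seen, went the other way with 1, 3, 37 and 54 reads (4.02, SE 0.77, edgeR adjusted p = 0.0548). The median of the 5 tested was -1.22, against -0.0031 for all genes. Of 23 chemokine receptors 9 could be tested and 0 passed in edgeR and in DESeq2, 2 of them with an unadjusted edgeR p under 0.05, and their median was -0.03. Cx3cr1, the receptor of Cx3cl1, had 62 and 51 reads in DMSO and 228 and 87 after NEDD8i (1.10, SE 0.48, edgeR adjusted p = 0.296), and was 0.22 without NEDD8i replicate 1. Of 10 chemokine-cleaving enzymes 6 were tested, 0 passed in edgeR, 2 had an unadjusted p under 0.05 and DESeq2 called 1, with a median of -0.30. Mmp14, a membrane protease and after Adam17 the other gene named there by mean log2 CPM, stood at -0.66 (SE 0.39, edgeR adjusted p = 0.452).

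Among cytokines that induce chemokines and their receptors 15 of 24 were tested, of which 0 passed in edgeR and DESeq2 called 1. At an unadjusted edgeR p under 0.05 there were 5 of the 15, all higher, against 8.62% of all tested genes as higher. The median of the 15 was 0.60. Tnfrsf1a, the main receptor for tumour necrosis factor, had 223 and 219 reads in DMSO and 475 and 633 after NEDD8i (0.92, SE 0.29, edgeR adjusted p = 0.175). Il1rn, the interleukin 1 receptor antagonist, had 211 and 205 reads against 535 and 618 (1.06, SE 0.28, edgeR adjusted p = 0.123). Of the T cell cytokines on the list Il17a, Il22, Ifng and Il4 had 0 reads in every library, while Il17f had 5 and Il13 had 6, all in NEDD8i replicate 1. In the list of NF-kB factors, their inhibitors and RNA decay genes 1 of 22 tested rose, against 0.667% of all tested genes. Of the rest 0 fell and 21 did not pass, and the median of the 22 was 0.40. At an unadjusted edgeR p under 0.05 there were 5 of the 22, all higher, against 8.62% of all tested genes. Both NEDD8i libraries lay above both DMSO libraries for 11 and below them for 3, against 25.1% and 22.7% of all tested genes. The riser was Bcl3, an atypical IkB protein that acts with NF-kB subunits in the nucleus, with 78, 82, 774 and 676 reads in library order (2.77, SE 0.31, edgeR adjusted p = 0.00939). Bcl3 passed in each of 13 other settings. DESeq2 called 2 genes of this list. Tnfaip3, an NF-kB target that shuts the pathway down, had 76 and 47 reads in DMSO and 204 and 321 after NEDD8i (1.72, SE 0.35, edgeR adjusted p = 0.0673, named after its value was seen).

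The tested genes whose profile lay nearest to that of Cxcl2, by distance between log2 CPM values centred over the 4 libraries, were Mat2a, Nip7 and Map2k3, at distances of 0.04, 0.15 and 0.16 log2 units. Mat2a encodes a methionine adenosyltransferase and had 385 and 224 reads in DMSO and 1433 and 981 after NEDD8i. This likeness over 4 libraries is a description only.

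**Figure D5:**
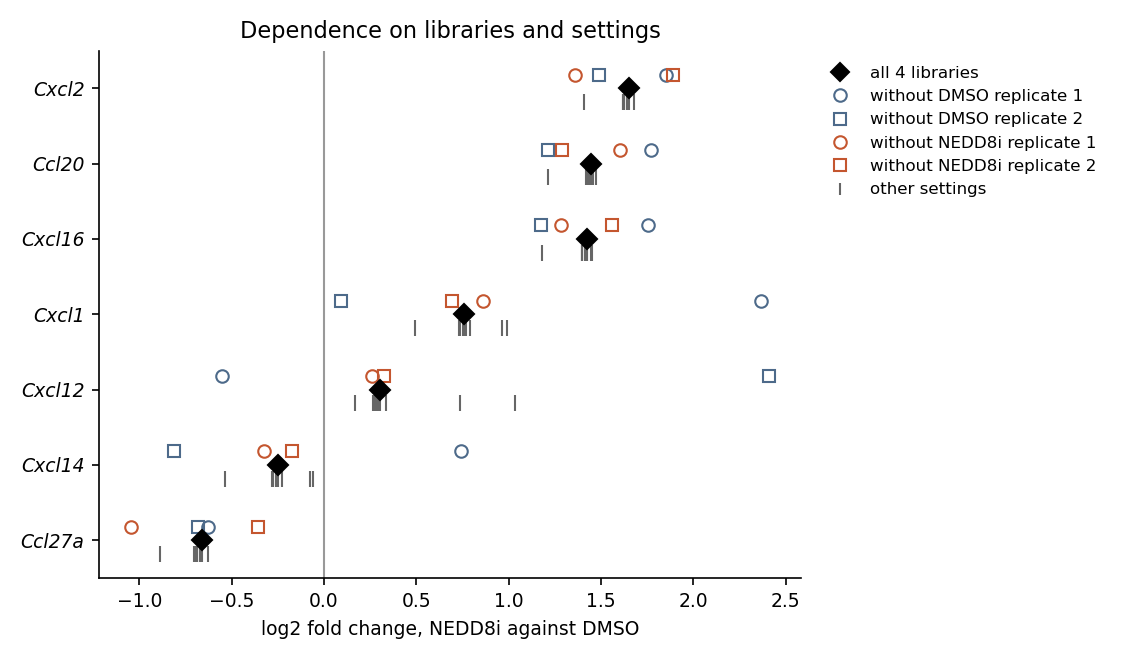
Log2 fold change of NEDD8i against DMSO for the 7 tested chemokines (horizontal axis) with all 4 libraries (black diamonds), with each library left out (open symbols) and under the other settings (ticks). Cxcl2, Ccl20 and Cxcl16 stay above 1 throughout and Ccl27a below 0, while Cxcl12 and Cxcl14 cross 0 with the choice of DMSO library.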

How the data were processed

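The authors deposited a single table of raw read counts per gene, with featureCounts columns per the file headers; the submitters' processing notes name STAR, featureCounts and DESeq2, without versions, and both GRCm38 and GRCm39. Of the 10 chemokine genes 1 had the same start in GENCODE M21 (GRCm38), and 2.7% of 52029 matched genes did, so coordinates are taken to be GRCm39. RNA was made into QuantSeq FWD libraries, per the labels' protocols. Columns were matched to samples by title, and 0 were left unused.

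All genes were tested together in R 4.3.3 with edgeR 4.0.16: TMM factors, filterByExpr (minimum count 10, minimum total 15), robust quasi-likelihood F test of the group, and Benjamini-Hochberg adjustment over 11388 genes. Log2 CPM used a prior count of 2. A member with 0 reads was given a limit of 3 counts. Intervals of log2 fold changes come from the fit and include the spread between libraries. Intervals of count ratios and shares, and the limits for 0 reads, cover counting error only; molecular identifiers are not mentioned. Log2 fold changes had a standard error of 0.42 in the median. The libraries of each group differed by more than sampling noise (chi-square over its degrees of freedom, 34.5 for DMSO and 24.1 for NEDD8i). Alternatives were DESeq2 1.42.0, limma-voom (limma 3.58.1), other scaling, other filters, no robust option, no ribosomal RNA genes, a replicate block and each library left out. The steps were tested on simulated data.

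The members, gene lists and tests were chosen with earlier results of these data known. Besides the members, the text names from each pathway list up to 4 genes past the threshold, or otherwise the 2 tested genes with the highest mean log2 CPM; from each cell type list the 2 with most reads could be named; the 3 genes nearest to the member with the smallest p; and genes said to be chosen for their ligand or after their values were seen. Some other members of these lists, such as Cd207, Ivl, Col3a1 and Il17f, are named outside these rules, and their choice followed no rule. Promoter motifs were searched in RefSeq windows of GRCm38.p6.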

Additional observations from a re-analysis of the deposited data

How the results depend on the processing

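With 2 libraries a group, results leaned on single libraries. In a fit without a library, 1 group has 1 sample, assumed to vary like the other group. The number of genes past the threshold, 89 of 11388, was 47 with library sizes without TMM, 27 with limma-voom, 48 without the robust option, 414 with DESeq2, 703 without a filter and 44 to 1358 with a library left out (44 without NEDD8i replicate 1, 46 without NEDD8i replicate 2, 1285 without DMSO replicate 1, 1358 without DMSO replicate 2). Chemokines past it, 0 of 7, numbered 2 with DESeq2 and 2 without a filter, and 0 to 3 with a library left out: 2 without DMSO replicate 1, 3 without DMSO replicate 2, 0 without either NEDD8i library. In those fits 10.4%, 10.7%, 0.368% and 0.387% of all genes passed, in the order DMSO replicates 1 and 2 and NEDD8i replicates 1 and 2. Cxcl2 ran from 1.36 to 1.89 with a library left out and was 1.62 with DESeq2 and 1.68 without a filter. Cxcl16 ran from 1.18 to 1.75 and was 1.40 and 1.45. Cxcl12 ran from -0.55 to 2.41 and Cxcl14 from -0.81 to 0.74. Cxcl10 ran from -1.87 to 0.17, Adam17 from -0.0089 to 0.44 and Mmp14 from -1.15 to 0.074. The cause of these shifts was not tested. Library sizes without TMM moved the median of all genes to -0.22; relative to it Cxcl2 stood at 1.63, Cxcl16 at 1.40, Ccl20 at 1.44 and Ccl27a at -0.66.

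The replicate numbers come from the sample titles, which do not state a pairing. Deviations of same-numbered libraries from their group means had a correlation of -0.13 across genes. With 2 libraries a group, that value cannot settle whether they were paired. With the replicate block 285 genes (2.5%) and 2 chemokines passed, Cxcl2 (1.64, adjusted p = 0.0249) and Cxcl16 (1.45, adjusted p = 0.0439). With crossed numbers, an alternative chosen after seeing the data, 483 genes and 1 chemokine passed.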

Other observations

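The following genes of the chemokine, cytokine and marker lists were named after their values were seen, most of them because their reads lay mainly in the NEDD8i libraries, so they do not stand for any group of genes. Ccl6 had 1 and 3 reads in DMSO and 37 and 54 after NEDD8i, or 17.4 times as many after scaling by depth (95% counting interval 6.57 to 65.3), and just missed the threshold (log2 fold change 4.02, SE 0.77, edgeR adjusted p = 0.0548). Ccl9 had 0 reads in both DMSO libraries and 8 and 12 after NEDD8i. The 95% counting interval of its depth-scaled ratio began at 3.78 and had no upper end. Ccl3 had 0 reads in DMSO and 20 and 6 after NEDD8i, with the same interval beginning at 5.02. Ccl4 had 1 and 0 reads against 15 and 1, so that NEDD8i replicate 1 held nearly all of them. That library also held most reads of Il1b, a cytokine of activated myeloid cells (12 and 9 in DMSO, 137 and 17 after NEDD8i), and of Cd14, a lipopolysaccharide co-receptor (0 and 0 in DMSO, 67 and 5 after NEDD8i). The macrophage metalloelastase Mmp12, which cleaves chemokines, had 0 reads in DMSO and 26 and 19 after NEDD8i. The 95% counting interval of its depth-scaled ratio began at 8.96 (edgeR adjusted p = 0.0703). Other genes did not share this pattern: the macrophage chemokine Ccl8 had 7 and 8 reads in DMSO and 4 and 6 after NEDD8i, and the macrophage marker Adgre1 had 32 and 2 against 10 and 2. None of these genes passed in edgeR's test over all genes, and Ccl9, Ccl3, Ccl4, Ccl8, Adgre1 and Cd14 did not pass the filter on low counts and were not tested. Ccl6 and Mmp12 passed that filter only through the NEDD8i libraries.

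Markers of T cells, subsets of which bear Ccr6, Ccr10, Ccr4 and Cxcr6, were tested as well. The list summed to 43.5 and 61.6 CPM in DMSO and 40.9 and 41.6 CPM after NEDD8i. In edgeR 0 of 7 tested members passed, with 0 at an unadjusted p under 0.05, against 16.5% of all tested genes.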
